A study of Mus musculus with 36 samples.

Results

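The comparison described here is that of hearts from mice given lipopolysaccharide (LPS) and genipin with hearts from mice given LPS alone. It rests on 6 of the 36 arrays of the series, 3 per group, picked by their labelled tissue and treatment. All 9669 genes with a named probe measured in heart were described, of 12394 in the whole series. The mice were transgenic females of the FVB strain, 6 to 8 weeks old, whose luciferase activity was imaged; the labels do not name the promoter that drives the transgene, and the untreated controls carry it too. LPS was injected into the peritoneum at 4 mg/kg, genipin followed 10 min later, and tissues were taken 4 h later. The series lists genipin doses of 1, 10 and 100 mg/kg, with 5 mice in each treatment group, but not the dose of the mice whose hearts were arrayed. Hearts of 3 mock arrays, from mice given no treatment, stand beside as the background. Whether a group's 3 arrays stand for 3 mice is not stated, so the p-values below measure the spread between these arrays, which may be technical. No hearts given genipin without LPS were analysed here.

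LPS, a component of the outer membrane of Gram-negative bacteria, is sensed by TLR4 with CD14 and its carrier protein LBP. The adaptor MyD88 leads from there to NF-kB, which switches on chemokines, adhesion molecules and its own inhibitors, while the adaptor TRIF leads to type I interferon and from there to the interferon-stimulated genes. In the heart during endotoxaemia, endothelium turns adhesive and leaky, and transcripts for fuel oxidation and calcium cycling in the muscle are known to drop. Genipin is the aglycone of geniposide, an iridoid of gardenia fruit, known as a cross-linker of proteins and as an inhibitor of the mitochondrial uncoupling protein UCP2. The study asked whether it dampens acute systemic inflammation.

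Arrays of a group agreed closely. Over all heart genes, log2 intensities correlated at 0.985 to 0.993 among LPS arrays and at 0.990 to 0.995 among LPS plus genipin arrays. Between those groups the correlation was 0.949 to 0.957. Each gene was represented by its probe with the highest mean intensity in heart, intensities were raised to a floor of 263, and differences were tested with limma over the 9 heart arrays. A gene is called changed at a Benjamini-Hochberg adjusted p below 0.05 over all 9669 genes. Differences are on the log2 scale, LPS plus genipin minus LPS, with the standard error (SE) of the fit. Where a whole group lies at the floor, or has reached 60000 and so saturated the scanner, the probe gives only a bound. Levels belong to a probe and are not compared between genes.

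Fat and atrial transcripts set the LPS hearts apart from the other hearts and are given first and separately, since they may reflect what was dissected with each heart. Adipoq, the fat cell hormone adiponectin, read 14.31, 14.35 and 14.30 in LPS hearts and 9.38, 9.38 and 9.36 with genipin. The mock hearts stood at 9.53, 9.44 and 9.07, so only the LPS arrays were high. Cfd (adipsin), secreted by fat cells, read 15.66, 15.84 and 15.65 with LPS and 9.98, 9.99 and 10.13 with genipin, a difference of -5.69 ± 0.07 (adjusted p = 3.2e-09). Pck1, the glyceroneogenic enzyme of fat, differed by -5.36 ± 0.17, and Fasn, fatty acid synthase, by -3.48 ± 0.06. Scd1, the fatty acid desaturase, was saturated on all 3 LPS arrays and at least 10.7-fold lower with genipin. Myl7, the regulatory myosin light chain of atrial muscle, was saturated on every LPS array and read 9.41, 9.59 and 9.44 with genipin, at least 91.6-fold lower. It read 10.47, 10.25 and 10.30 in mock hearts. Myl4, the atrial essential light chain, was at least 24.9-fold lower with genipin (-4.64 ± 0.06, adjusted p = 3.2e-09). Mybphl and Dkk3, both enriched in atrium, differed by -3.54 ± 0.05 and -4.31 ± 0.10. The groups did not overlap for any of these.

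Of 26 fat transcripts measured, 15 were lower with genipin and 2 higher (Cd36 and Dgat2), with a median difference of -0.55. Of 13 atrial transcripts, 10 were lower and none higher, with a median of -1.29. Over all genes tested, 19.8% were called lower and 22% higher, and the median difference was 0.03. The 4 atrial muscle markers (Myl7, Myl4, Mybphl and Stard10) summed to a log2 level of 17.26 to 17.32 in LPS hearts, 12.74 to 12.77 with genipin and 12.96 to 13.07 in mock hearts. The 3 adipocyte markers (Adipoq, Cfd and Fabp4) summed to 16.39 to 16.57, 14.07 to 14.60 and 13.62 to 14.12 in the same order. Fabp4, which capillary endothelium also expresses, was not called (-0.01 ± 0.25). Of the 12 markers of heart muscle measured, none was called. On every array of a group, 9 of them were saturated in LPS, 10 in LPS plus genipin and 11 in mock hearts, among them Myh6, Tnnt2 and Tnni3, so the defining markers of the labelled tissue were present. Fat and atrial level and treatment changed together in these arrays and cannot be told apart. The part of fat and atrial tissue in the results that follow was not tested. In whole tissue, fewer cells of a type and less RNA per cell cannot be told apart either.

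**Figure D1:**
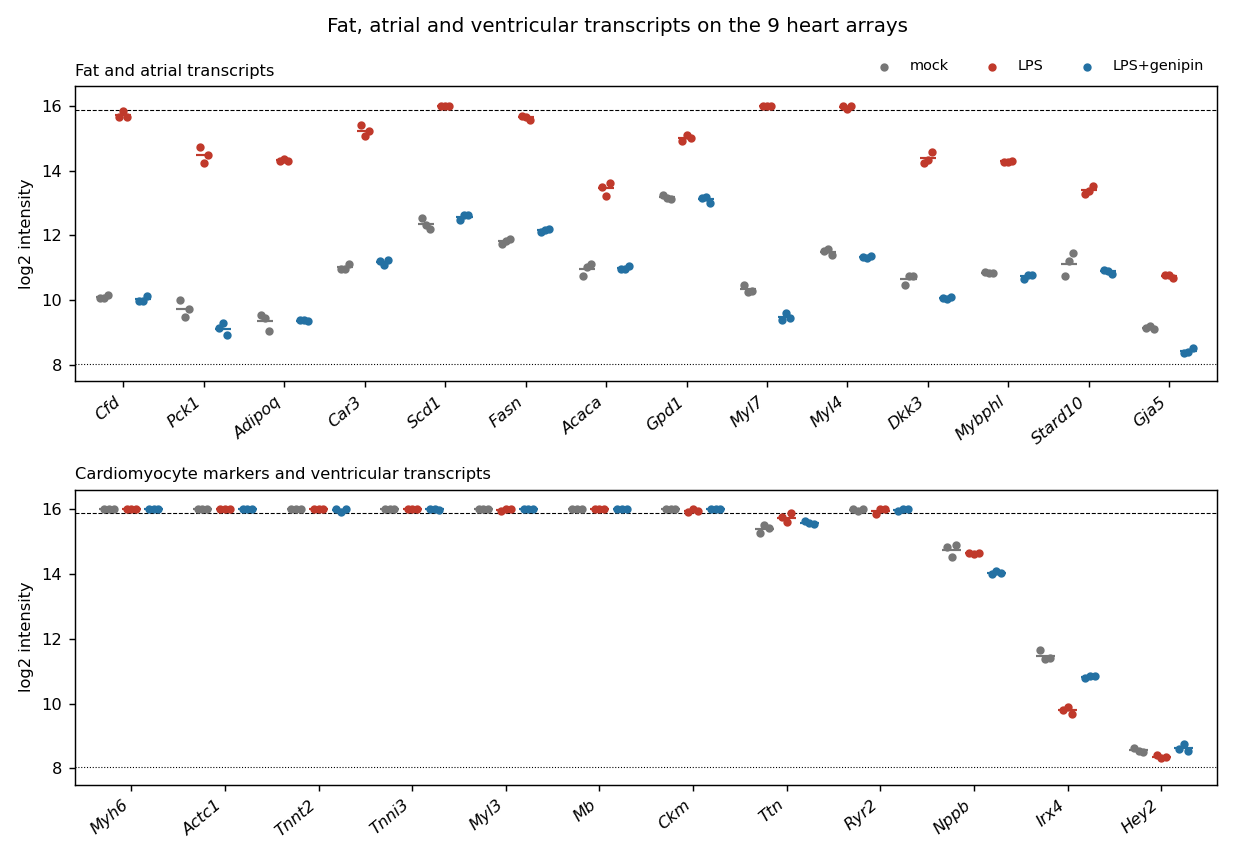
Log2 intensity of fat and atrial transcripts (top) and of heart muscle markers and ventricular transcripts (bottom) on the 9 heart arrays; each point is an array, the short line the mean of a group, the dotted line the floor and the dashed line the saturation intensity. The LPS arrays stand above both other groups in every fat and atrial transcript shown, while most muscle markers lie at saturation in all groups.

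Across the measured genes, 4048 of 9669 were called (41.9%): 2130 were higher with genipin and 1918 lower. Fewer changes were large: 478 genes (4.94%) differed at least 2-fold, 125 higher (1.29%) and 353 lower (3.65%). The 3 arrays of each group did not overlap in 52.5% of all genes. The same fit called 4549 genes (47%) between LPS and mock hearts, and 1891 genes (19.6%) between LPS plus genipin and mock hearts. At least 2-fold changes numbered 690 (7.14%) in the former and 156 (1.61%) in the latter. The comparisons with mock share arrays with the comparison of genipin, so their values are set side by side and no overlap is counted between them.

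The gene lists described next cover innate immunity, vessels, stress responses, metabolism and heart muscle, and read differently from one another. Lists of interferon-stimulated, acute-phase, NF-kB and endothelial activation genes held mostly lower transcripts, while lists of endothelial quiescence, mitochondrial ribosome, calcium handling and citric acid cycle genes held more higher than lower ones. Cytosolic ribosomal proteins hardly moved: 1 of 19 was called (Rpl3l, 0.32 ± 0.06), and 2 of 19 without LPS plus genipin array 1.

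**Figure D2:**
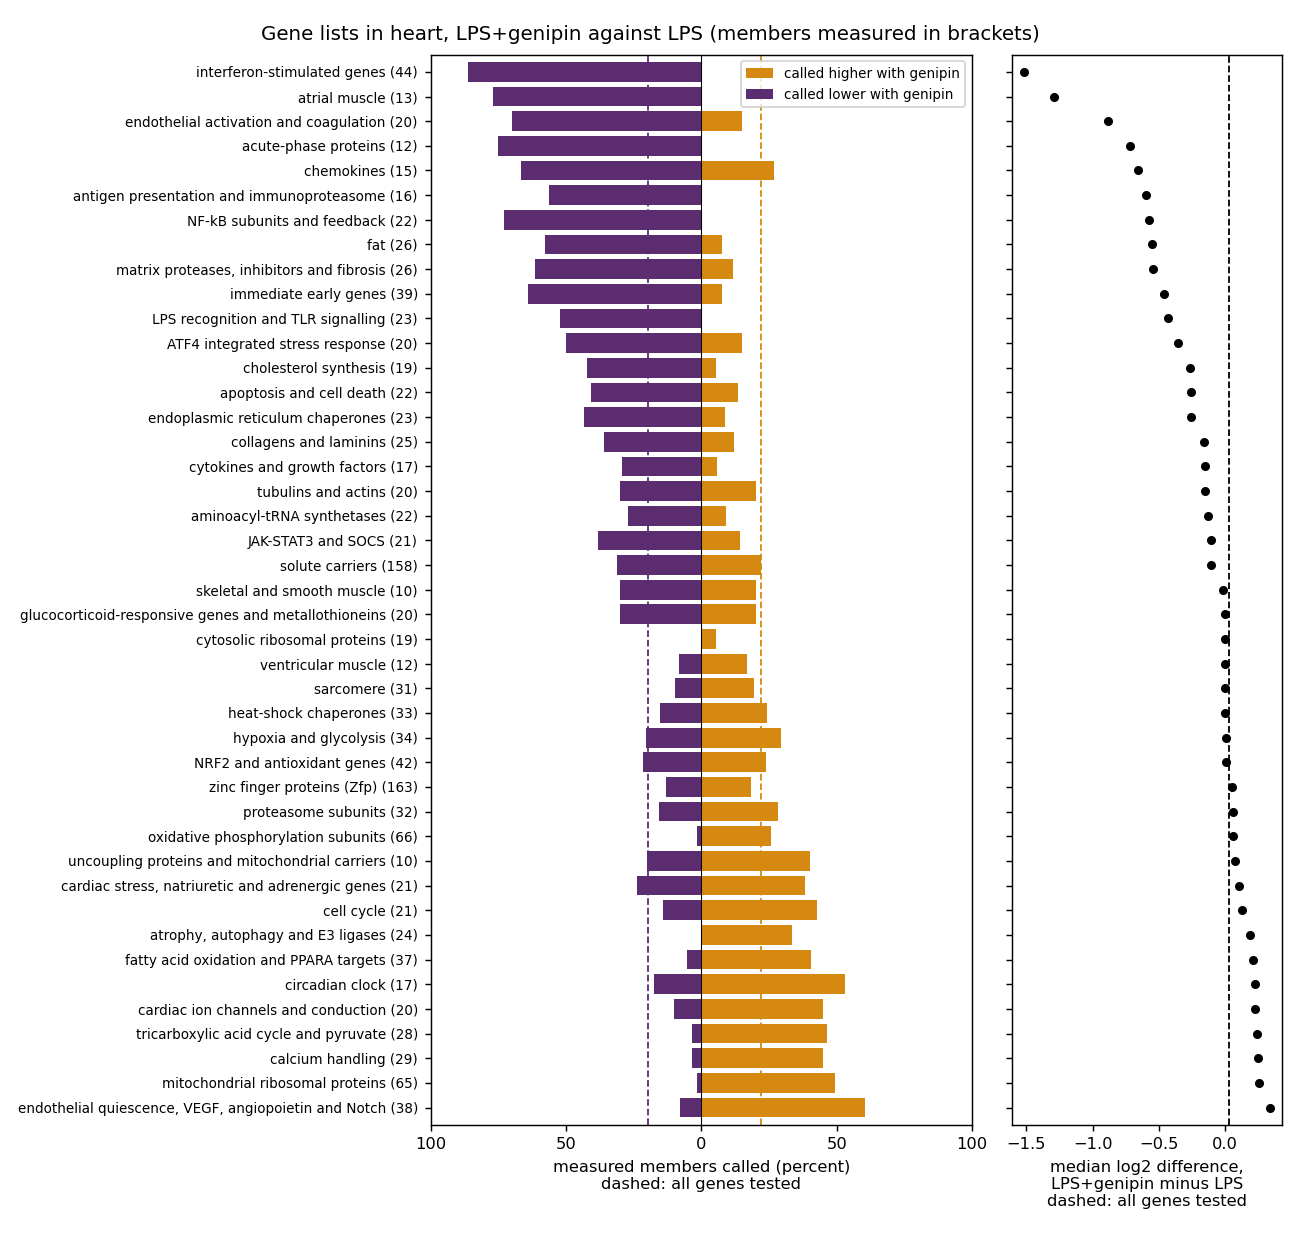
Share of the measured members of each gene list called higher (orange, right) or lower (purple, left) with genipin, and the median log2 difference of the list; members measured are in brackets, and dashed lines give the same over all 9669 genes. Of the interferon-stimulated genes 38 of 44 are lower, and of the endothelial quiescence genes 23 of 38 are higher.

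Interferon-stimulated genes fell with genipin as a group: 38 of 44 were lower and none higher, against 19.8% of all genes lower. Their median difference was -1.52; their medians against mock were 2.14 for LPS and 0.65 for LPS plus genipin. With LPS plus genipin 33 of 44 still stood above mock, against 7.44% of all genes. The summed fat level was 18.37 to 18.48 in LPS plus genipin hearts, 18.27 to 18.34 in mock hearts and 19.26 to 19.32 in LPS hearts. The part of fat in the interferon-stimulated genes was not tested. In 13 of the 48 RefSeq promoters (build GRCm38.p6) found for 37 of these genes, the 250 bases before the gene start held the letters of the interferon-stimulated response element (GAAA, any 2 bases, GAAA, on either strand), 27.1%, against 2.98% of 32851 promoters of all genes. The gamma-activated site TTCNNNGAA, on either strand, was found in 20.8% of them, against 7.02%. In promoters of the NF-kB list below it was found in 16%, and in the other lists searched in 4.76% to 7.69%. A match is a description of letters, not a shown binding site. Promoters of Isg15, Ifit3, Gbp2 and Igtp are printed. Isg15 encodes the ubiquitin-like product of the family and was chosen after its values were seen. The others were picked from those of the 6 largest falls that had a match. No match was found for Ifi47 or Isg20, also among those falls, and Gbp3 had a match but is not printed. The printed promoters run 5′ to 3′ along the gene's strand, with capitals marking the element, or its reverse complement.
Isg15, chr4:156200819-156201068, minus strand: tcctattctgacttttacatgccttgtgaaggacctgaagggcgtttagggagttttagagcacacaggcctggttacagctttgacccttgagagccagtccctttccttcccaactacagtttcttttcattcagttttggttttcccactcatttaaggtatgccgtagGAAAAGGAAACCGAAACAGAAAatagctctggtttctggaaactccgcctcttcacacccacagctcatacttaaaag
Ifit3, chr19:34583279-34583528, plus strand: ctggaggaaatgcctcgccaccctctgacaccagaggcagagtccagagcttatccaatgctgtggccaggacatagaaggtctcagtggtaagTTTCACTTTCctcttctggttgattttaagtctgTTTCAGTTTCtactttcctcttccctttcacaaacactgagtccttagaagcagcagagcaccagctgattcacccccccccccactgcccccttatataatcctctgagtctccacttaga
Gbp2, chr3:142620413-142620662, plus strand: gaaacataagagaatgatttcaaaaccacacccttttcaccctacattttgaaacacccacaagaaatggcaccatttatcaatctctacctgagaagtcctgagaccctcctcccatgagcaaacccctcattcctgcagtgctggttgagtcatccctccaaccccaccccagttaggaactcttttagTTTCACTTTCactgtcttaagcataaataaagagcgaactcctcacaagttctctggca
Igtp, chr11:58199306-58199555, plus strand: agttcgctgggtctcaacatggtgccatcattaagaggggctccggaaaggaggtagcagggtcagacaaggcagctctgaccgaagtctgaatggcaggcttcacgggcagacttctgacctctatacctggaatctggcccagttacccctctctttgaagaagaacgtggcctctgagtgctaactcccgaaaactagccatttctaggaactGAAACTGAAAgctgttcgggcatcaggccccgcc
The capitals of Isg15 hold 3 overlapping matches that begin 78 bases before the gene start, and Ifit3 has 2 separate ones.

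Ifi47, an immunity-related GTPase, gave the largest fall of the list. It read 14.85, 14.94 and 14.82 in LPS hearts and 12.50, 12.51 and 12.33 with genipin, a difference of -2.42 ± 0.14 (adjusted p = 6.8e-06). With genipin it stayed above the mock hearts, which read 10.37, 10.20 and 9.79. Ifit3, which binds viral RNA together with its relatives, read 13.43, 13.36 and 13.44 with LPS and 11.08, 10.93 and 11.16 with genipin (-2.35 ± 0.10, adjusted p = 1.7e-06). Igtp (Irgm3), a GTPase that guards vacuoles, read 13.82, 13.96 and 13.90 with LPS and 11.54, 11.59 and 11.54 with genipin (-2.34 ± 0.06, adjusted p = 7.2e-08). Gbp2, a guanylate-binding protein that attacks pathogen membranes, read 15.63, 15.55 and 15.48 with LPS and 13.11, 13.41 and 13.23 with genipin (-2.30 ± 0.08). The genipin arrays of these genes lay between the LPS and the mock arrays with no overlap. Isg15 read 13.21, 13.16 and 13.29 with LPS, 10.81, 11.04 and 11.003 with genipin and 9.01, 9.10 and 9.10 in mock hearts. Gbp3 differed by -2.28 ± 0.08. Isg20, an exonuclease, was the exception among the 6 largest: it read 12.81, 12.81 and 12.81 with LPS, 10.38, 10.64 and 10.55 with genipin and 10.75, 10.42 and 10.43 in mock hearts, so that its genipin and mock arrays overlapped.

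The falls ran through the branches of the response. Among sensors of cytosolic RNA, Ifih1 (MDA5) differed by -1.96 ± 0.11, Ddx58 (RIG-I) by -1.49 ± 0.12 and Dhx58 (LGP2) by -2.23 ± 0.11. Among the transcription factors, Irf1 differed by -1.60 ± 0.08, Irf8 by -1.78 ± 0.07, Stat2 by -1.20 ± 0.09 and Irf9 by -0.67 ± 0.11. The antiviral effectors Rsad2 (viperin), Bst2 (tetherin) and Eif2ak2 (PKR) differed by -1.89 ± 0.07, -1.83 ± 0.07 and -1.47 ± 0.08. These genes were picked for their roles after their values were seen. The 6 members not called were Oas1a, Oas3, Irf7, Dtx3l, Ifitm1 and Trim21, with differences from -0.22 to 0.31. Irf7, the interferon regulator, read 13.54, 13.60 and 13.36 with LPS and 13.33, 13.42 and 13.57 with genipin. In 31 members measured in all 4 tissues the median genipin difference was -1.61 in heart, -0.90 in brain, -1.27 in kidney and -1.36 in liver. The median of 17 fat transcripts was -0.33 in heart, 0.00 in brain, 0.10 in kidney and -0.01 in liver. Their part in the falls was not tested in any tissue.

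**Figure D3:**
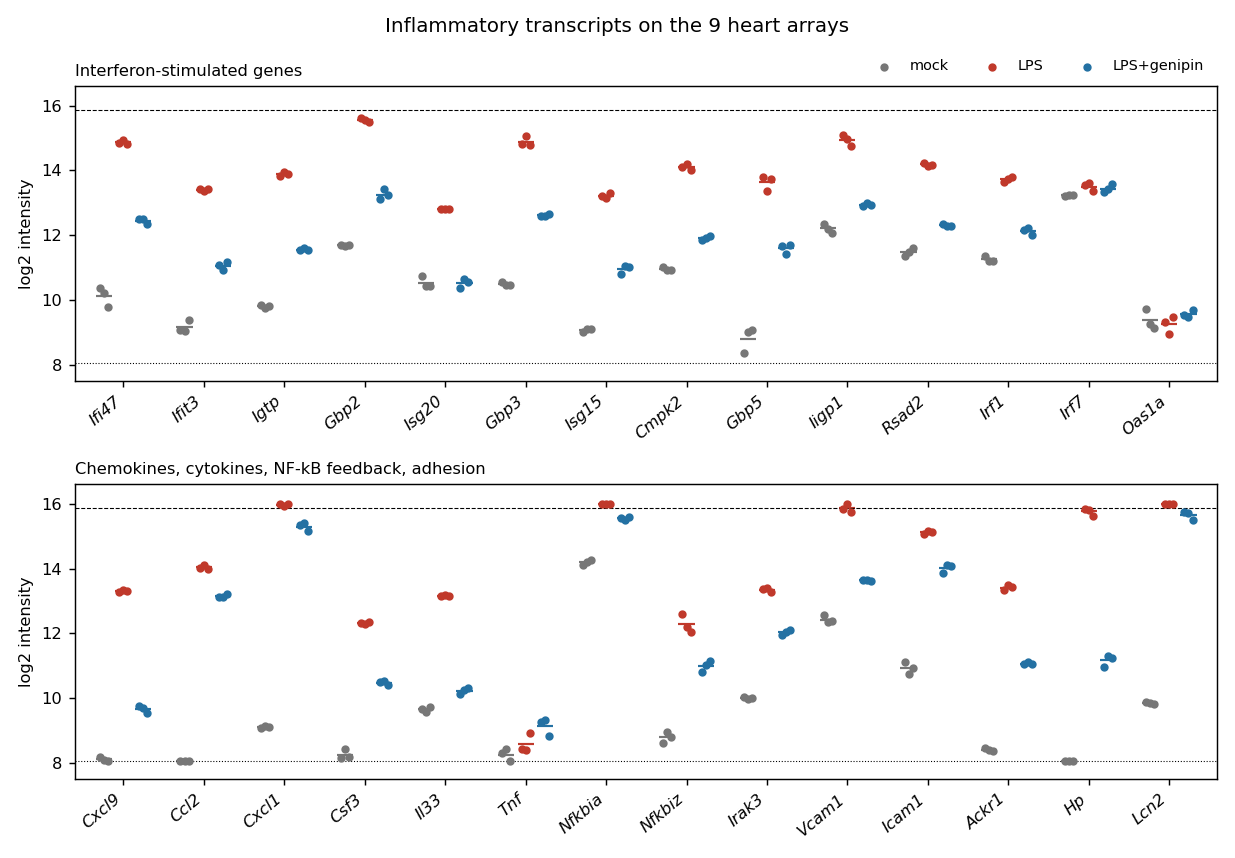
Log2 intensity of interferon-stimulated genes (top) and of chemokines, cytokines, NF-kB feedback and adhesion genes (bottom) on the 9 heart arrays; points are arrays, short lines group means, the dotted line the floor and the dashed line the saturation intensity. The genipin arrays lie between mock and LPS for most genes shown, stand 5.12 or more above mock on the mean for Ccl2, Cxcl1 and Lcn2, and do not separate from LPS for Irf7 and Oas1a.

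Antigen presentation genes held 9 of 16 lower members and none higher, with a median of -0.60. Cd274, which encodes the checkpoint ligand PD-L1, read 12.66, 12.63 and 12.49 with LPS and 10.19, 10.36 and 10.16 with genipin (-2.35 ± 0.13, adjusted p = 5.2e-06). Psmb8, Psmb9 and Psmb10, the catalytic subunits of the immunoproteasome, differed by -1.35 ± 0.15, -1.28 ± 0.14 and -0.87 ± 0.08. Tap2, a subunit of the peptide transporter, differed by -1.12 ± 0.12 and Tapbpl, a relative of tapasin, by -1.10 ± 0.14. B2m, the light chain of class I molecules, also chosen after its value was seen, was not called (-0.14). Of 32 proteasome subunits, 5 were lower, the 3 of the immunoproteasome with Psmd8 and Psmd10, and 9 were higher, led by the constitutive catalytic subunit Psmb7 (0.80 ± 0.05, adjusted p = 9.9e-06). Without LPS plus genipin array 2, 5 were higher. Over all genes 19.8% were lower and 22% higher, so the shares of this proteasome list lay near the background.

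LPS recognition and TLR genes held 12 of 23 lower members and none higher (median -0.43). Lbp, the LPS carrier, read 12.74, 12.67 and 12.77 with LPS and 10.86, 10.85 and 10.66 with genipin (-1.94 ± 0.07, adjusted p = 7.9e-07). Cd14, the LPS co-receptor, read 14.14, 14.21 and 14.16 with LPS and 12.93, 12.82 and 12.93 with genipin (-1.28 ± 0.08), and the adaptor Myd88 read 12.30, 12.51 and 12.33 with LPS and 11.13, 11.08 and 11.05 with genipin (-1.29 ± 0.07). The receptors of bacterial lipoprotein and of single-stranded RNA, Tlr2 and Tlr7, differed by -0.94 ± 0.08 and -0.82 ± 0.09. In all of these except Tlr7, LPS plus genipin still stood above mock, by 2.58 for Lbp, 1.12 for Cd14, 0.85 for Myd88 and 2.17 for Tlr2.

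NF-kB subunits and feedback genes held 16 of 22 lower members and none higher (median -0.58; against mock, 0.98 with LPS and 0.59 with LPS plus genipin). Nfkbia, the inhibitor that NF-kB itself induces, was saturated on the LPS arrays and read 15.56, 15.50 and 15.59 with genipin, at least 1.36-fold lower (-0.44 ± 0.06, adjusted p = 0.00053). Its promoter is shown with a kappa B site in capitals, since this feedback gene is a standard readout of NF-kB.
Nfkbia, chr12:55492648-55492897, minus strand: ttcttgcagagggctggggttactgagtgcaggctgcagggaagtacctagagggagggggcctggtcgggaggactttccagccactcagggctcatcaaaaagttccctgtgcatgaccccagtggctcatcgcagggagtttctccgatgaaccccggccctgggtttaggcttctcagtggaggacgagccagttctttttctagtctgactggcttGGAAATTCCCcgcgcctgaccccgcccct
The kappa B letters searched were GGG, any 2 bases and TTTCC on either strand. They occurred in 4 of 25 promoters of 18 genes of the list (16%), those of Cyld, Nfkb2 and Nfkbia. The share was 1.41% of all promoters, 15.4% in the chemokine list and 0% to 2.08% in the other lists searched. Nfkbiz, the nuclear co-activator of Lcn2 and other secondary targets, read 12.61, 12.18 and 12.05 with LPS and 10.81, 11.01 and 11.14 with genipin (-1.29 ± 0.16, adjusted p = 0.00044). The brakes Irak3 and Bcl3 differed by -1.31 ± 0.06 and -1.05 ± 0.16, the kinase Ikbke by -1.25 ± 0.09 and the ubiquitin ligase Birc3 by -1.21 ± 0.06. Among the subunits, Nfkb2, Relb and Rela differed by -0.78 ± 0.07, -0.73 ± 0.10 and -0.51 ± 0.16, while Nfkb1 was not called (0.13 ± 0.18). The subunits were picked for their roles after their values were seen.

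Chemokines split. Of 15 measured, 10 were lower and 4 higher (median -0.66). Cxcl9, an interferon-gamma-induced attractant of T cells, read 13.26, 13.35 and 13.30 with LPS and 9.75, 9.68 and 9.54 with genipin, 12.5-fold lower (-3.65 ± 0.07, adjusted p = 2.8e-08). Ccl2, the main attractant of monocytes, moved far less: it read 14.03, 14.10 and 13.99 with LPS and 13.13, 13.13 and 13.20 with genipin (-0.89 ± 0.05, adjusted p = 6.8e-06), while every mock array was at the floor. Cxcl1, an attractant of neutrophils, was saturated with LPS and read 15.34, 15.40 and 15.16 with genipin, at least 1.6-fold lower, against 9.08, 9.12 and 9.11 in mock hearts. With genipin, Ccl2 stayed at least 5.12 above mock, Cxcl1 6.20 and Cxcl9 1.56. Pf4, Cx3cl1, Ccl22 and Ccl9 differed by -1.40 ± 0.07, -1.31 ± 0.07, -1.22 ± 0.24 and -1.15 ± 0.09. The 4 higher members were Cxcl12, Ccl6, Ccl25 and Ppbp. For Cxcl12, the homeostatic chemokine of stroma, the probe used rose (1.38 ± 0.13) and its other probe was called lower, so its direction is unsettled. Ccl12 was not called (2.19 ± 0.79, adjusted p = 0.055): it read 12.46, 12.35 and 12.45 with genipin but 11.07, 8.04 and 11.58 with LPS, with LPS array 2 at the floor; it was singled out after its values were seen.

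Cytokines and growth factors held 5 of 17 lower members and 1 higher, against 19.8% and 22% of all genes. Il33, an alarmin of endothelium and stroma, read 13.14, 13.19 and 13.14 with LPS and 10.11, 10.25 and 10.30 with genipin, 7.66-fold lower (-2.94 ± 0.07, adjusted p = 5.6e-08). Csf3, which mobilises neutrophils, read 12.33, 12.29 and 12.35 with LPS and 10.49, 10.52 and 10.41 with genipin (-1.85 ± 0.08), and Csf1, the macrophage growth factor, differed by -0.76 ± 0.06. The other lower members were Tgfb2 and Tgfb3; the call of Tgfb2 was lost without LPS plus genipin array 1 or 3 (-0.49 to -0.48). Tnf was the 1 higher member, near the floor at 8.42, 8.39 and 8.91 with LPS and 9.27, 9.31 and 8.81 with genipin (0.56 ± 0.19, adjusted p = 0.043). Its call was lost without LPS array 1 or 2 or LPS plus genipin array 1 or 2, with differences of 0.47 to 0.49. Il6, Il1b and Cxcl10 are not analysed here. Of 21 JAK and SOCS genes, 8 were lower and 3 higher. The feedback inhibitors Socs1 and Socs3 differed by -1.25 ± 0.17 and -0.997 ± 0.08, and the oncostatin M receptor Osmr by -1.01 ± 0.08. The kinases Jak1 and Jak2 and the receptor Lifr were higher, Jak2 by 0.67 ± 0.11.

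Acute-phase genes held 9 of 12 lower members and none higher, but the sizes ranged widely. Hp, the haemoglobin-binding protein haptoglobin, read 15.86, 15.82 and 15.62 with LPS and 10.96, 11.30 and 11.23 with genipin, 24.3-fold lower (-4.60 ± 0.10, adjusted p = 5.6e-08), the largest fall of all named genes outside the fat and atrial lists. Its mock arrays read 8.04, 8.04 and 8.04, arrays 1 and 3 at the floor and array 2 just above it. Lcn2, which withholds iron from bacteria, was saturated with LPS and read 15.75, 15.71 and 15.49 with genipin, at least 1.27-fold lower (-0.34 ± 0.07), against 9.89, 9.86 and 9.81 in mock hearts. Complement C3 was saturated with LPS and at least 1.7-fold lower with genipin. Steap4, a metalloreductase, and ceruloplasmin (Cp) differed by -1.56 ± 0.11 and -0.94 ± 0.09. Serpina3f differed by -1.004 ± 0.26, a call lost without LPS plus genipin array 3 (-0.93). The list's median against mock was 2.72 with LPS and 1.60 with LPS plus genipin. Haptoglobin is also made by fat cells, and the fat transcripts above fell on the same arrays; their part was not tested.

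All 4 neutrophil markers measured were lower with genipin. S100a8 and S100a9, which form calprotectin, differed by -0.71 ± 0.06 and -1.03 ± 0.15. S100a8 read 13.93, 13.94 and 13.87 with LPS, 13.29, 13.22 and 13.11 with genipin and 9.84, 9.93 and 9.91 in mock hearts, so both treated groups stood far above mock; the same held for S100a9, which stayed 3.01 above mock with genipin. Ltf, lactoferrin of the secondary granules, instead read 13.65, 13.38 and 13.53 with LPS and 9.66, 9.54 and 9.25 with genipin (-4.04 ± 0.13, adjusted p = 4e-07), and did not differ from mock by the test (0.38, adjusted p = 0.081). The 4 markers summed to 15.46 to 15.58 with LPS, 14.21 to 14.30 with genipin and 11.78 to 12.002 in mock hearts. Of 8 macrophage markers, 4 were higher (Lyz2, Lyz1, Adgre1 and Csf1r) and none was called lower. Lyz2, the lysozyme of macrophages and neutrophils, read 11.44, 11.43 and 11.32 with LPS, 12.25, 12.42 and 12.49 with genipin and 12.48, 12.43 and 12.45 in mock hearts. Both red cell markers were lower, Alas2 (-1.51 ± 0.08) and Slc4a1 (-1.002 ± 0.13), and both also lay below mock. Both liver cell markers were higher: Alb was at the floor in LPS hearts and at least 2.96-fold higher with genipin, and Apoa1 differed by 1.44 ± 0.16.

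Endothelial activation and coagulation genes held 14 of 20 lower members and 3 higher (Nos3, Ptgs1 and Tfpi), with a median of -0.88. Vcam1, on which leukocytes arrest, read 15.84, 15.999 and 15.75 with LPS and 13.65, 13.66 and 13.61 with genipin (-2.23 ± 0.08, adjusted p = 6.9e-07). LPS array 2 was saturated there, so the difference of Vcam1 is a lower bound on the size of its fall. Icam1, which neutrophil integrins bind, read 15.06, 15.15 and 15.13 with LPS and 13.86, 14.10 and 14.08 with genipin, 2.15-fold lower (-1.11 ± 0.10). Icam1 stayed 3.09 above mock and Vcam1 1.21. Ackr1, the chemokine-binding receptor of venules, read 13.33, 13.48 and 13.42 with LPS, 11.04, 11.11 and 11.05 with genipin and 8.44, 8.39 and 8.36 in mock hearts. Angpt2, which loosens vessels by opposing Tie2, differed by -1.71 ± 0.10 and fell below mock (-0.56). Among fibrinolysis genes, Plaur, the urokinase receptor, differed by -1.60 ± 0.08 and Plat, tissue plasminogen activator, by -1.33 ± 0.08. Von Willebrand factor (Vwf) differed by -0.93 ± 0.09.

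Genes of endothelial quiescence, VEGF, angiopoietin and Notch signalling moved the other way: 23 of 38 were higher and 3 lower (Klf2, Jag1 and Angpt1), against 22% of all genes higher. Leaving out single arrays gave 18 to 21. The median was 0.34, beside -0.64 for LPS and -0.37 for LPS plus genipin against mock. Jag2, a Notch ligand, read 8.63, 8.63 and 8.24 with LPS, 10.02, 10.06 and 10.04 with genipin and 10.36, 10.43 and 10.45 in mock hearts (1.54 ± 0.10, adjusted p = 1.6e-05). Ptprb (VE-PTP), which holds Tie2 in check, read 11.78, 12.01 and 11.84 with LPS and 13.35, 13.29 and 13.28 with genipin (1.43 ± 0.08, adjusted p = 6.6e-06). Egfl7, secreted by endothelium, and Hey1, a Notch target, differed by 1.43 ± 0.08 and 1.34 ± 0.11. Pcdh12, an endothelial protocadherin, and the transcription factor Sox18 differed by 1.29 ± 0.07 and 1.13 ± 0.07. The genipin arrays of the first 5 lay between LPS and mock with no overlap and were still below mock by the test, and those of Sox18 did not differ from mock by it (adjusted p = 0.24). Tek, which encodes Tie2, read 10.68, 11.05 and 10.72 with LPS and 11.89, 11.94 and 11.86 with genipin (1.08 ± 0.11). Kdr (VEGFR2), Tie1 and Flt1 differed by 0.52 ± 0.10, 0.53 ± 0.06 and 0.37 ± 0.07; Tek and these 3 were picked as receptors after their values were seen. The structural markers Pecam1 and Cdh5 were not called, at -0.02 ± 0.07 and 0.05 ± 0.10, though a second probe of Pecam1 was called higher. The 9 endothelial markers summed to 15.36 to 15.44 with LPS, 15.58 to 15.63 with genipin and 15.75 to 15.83 in mock hearts; their part in the list's rise was not tested.

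**Figure D4:**
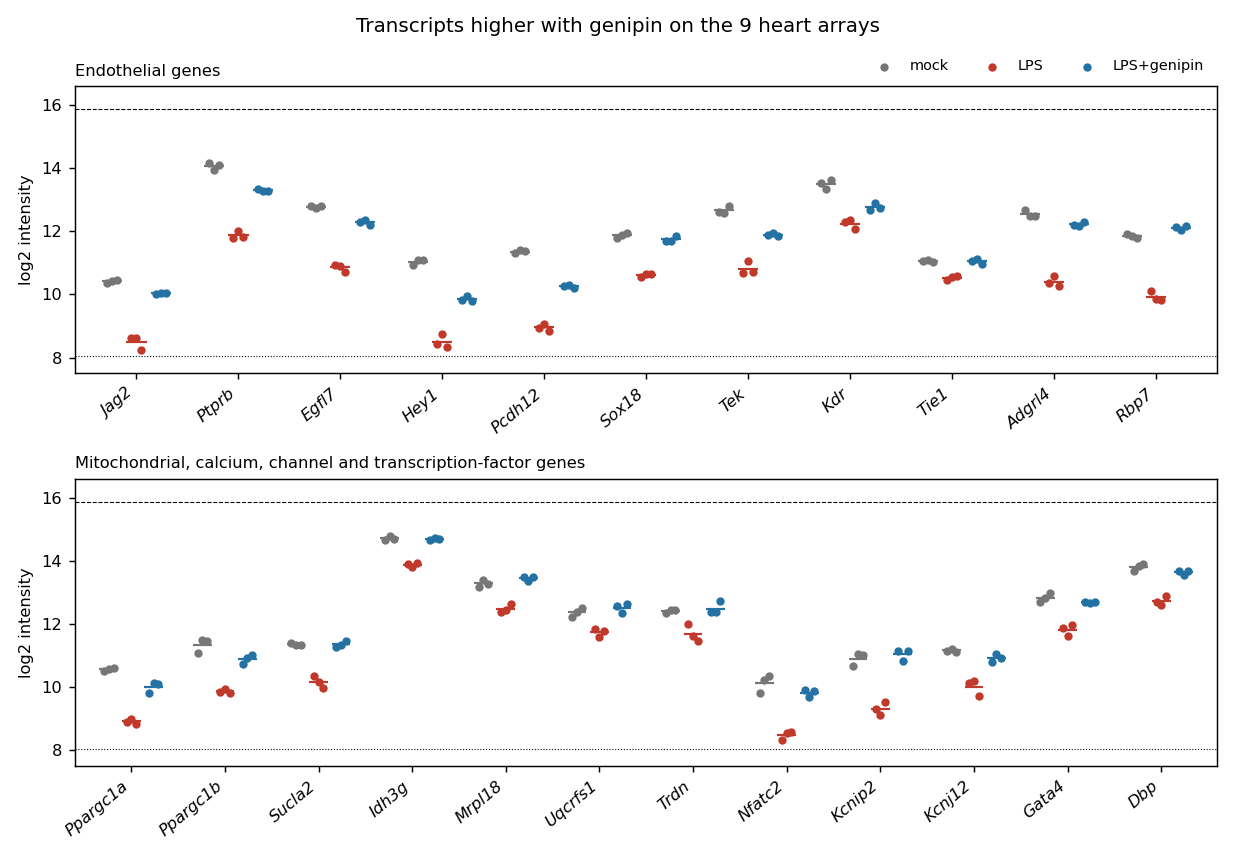
Log2 intensity of endothelial genes (top) and of mitochondrial, calcium handling, ion channel, cardiac transcription factor and clock genes (bottom) on the 9 heart arrays; points are arrays, short lines group means, and the dotted and dashed lines the floor and the saturation intensity. LPS arrays are the lowest in each gene shown, and the genipin arrays reach the mock arrays in Tie1 and Idh3g but stay below them in Hey1 and Pcdh12.

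Immediate early genes, which respond within minutes to growth factors and stress, held 25 of 39 lower members and 3 higher (Tob1, Klf10 and Gadd45a), with a median of -0.46. Fos, of the AP-1 factor, read 12.63, 12.68 and 12.80 with LPS and 10.84, 10.76 and 10.84 with genipin (-1.89 ± 0.09, adjusted p = 2.9e-06). Egr1 read 14.92, 14.93 and 15.10 with LPS and 14.25, 14.06 and 14.19 with genipin (-0.82 ± 0.09), and stayed 1.98 above mock. Atf3, a repressor of inflammatory genes, and Dusp1, a phosphatase of p38 and JNK, differed by -1.55 ± 0.10 and -1.24 ± 0.10. Egr2, Fosb and Myc fell below the mock level: they differed from LPS by -1.50 ± 0.10, -1.30 ± 0.14 and -0.74 ± 0.08, and from mock by -0.56, -0.76 and -0.39. Ccn1, a matrix target of YAP and serum response factor, differed by -1.49 ± 0.09. The CArG box of serum response factor was found in 5 of 42 promoters of 33 listed genes (11.9%), against 1.47% of all promoters. All 5 were promoters of Egr2 and Zfp36, so a gene with several promoters counts more than once.

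Of 26 matrix proteases, inhibitors and fibrosis genes, 16 were lower and 3 higher (Lum, Adamts5 and Timp4), with a median of -0.54. Timp1, an inhibitor of metalloproteinases induced in injured tissue, read 13.73, 13.84 and 13.87 with LPS and 9.98, 10.09 and 10.25 with genipin, 13.1-fold lower (-3.71 ± 0.11, adjusted p = 1.8e-07). Mmp3, stromelysin, read 9.52, 9.78 and 9.76 with LPS and lay at or near the floor with genipin (8.33, 8.04 and 8.04). Fibronectin (Fn1), Adamts1 and Postn differed by -1.25 ± 0.13, -1.17 ± 0.09 and -1.05 ± 0.08. Ccn2, connective tissue growth factor, was saturated with LPS and at least 2.03-fold lower with genipin, where it lay below mock (-0.65). Of 25 collagens and laminins, 9 were lower, 3 higher (Lama2, Lama5 and Lamb2) and 13 not called. Col18a1, the source of endostatin, led with -1.99 ± 0.11, and the basement membrane chain Col4a1 differed by -0.63 ± 0.06. The fibrillar collagens Col1a1, Col1a2 and Col3a1 were not called, at -0.10 ± 0.05, -0.30 ± 0.12 and -0.24 ± 0.13, and are named as the main fibrillar chains, chosen after their values were seen. The fibroblast markers summed to 17.56 to 17.64 with LPS and 17.39 to 17.46 with genipin, with 3 of 9 lower; their part was not tested.

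Stress pathways were mixed. Of 20 ATF4 targets, 10 were lower and 3 higher (Fgf21, Ddit3 and Vldlr). Nupr1, a stress-induced chromatin protein, read 13.67, 13.72 and 13.72 with LPS and 11.16, 11.41 and 11.40 with genipin (-2.38 ± 0.10). Asns, asparagine synthetase, read 12.37, 12.46 and 12.23 with LPS and 9.96, 10.15 and 10.07 with genipin (-2.29 ± 0.08). The amino acid transporter Slc7a5 differed by -1.36 ± 0.11. Of 22 aminoacyl-tRNA synthetase genes, 6 were lower and 2 higher (Aimp1 and Lars2), against 19.8% and 22% of all genes. Wars, which interferon-gamma is known to induce, led with -1.34 ± 0.06. The call of Aimp1 was lost without any single array of the comparison except LPS array 3 (0.37 to 0.64). Endoplasmic reticulum chaperones held 10 of 23 lower members (6 without LPS plus genipin array 1) and 2 higher (Herpud1 and Sdf2l1). The call of Sdf2l1 was lost without LPS array 1 or 2 or LPS plus genipin array 2 (0.53 to 0.56). Hsp90b1 (GRP94), the folding helper Creld2 and the secreted Manf differed by -0.54 ± 0.07, -0.58 ± 0.11 and -0.69 ± 0.11, and lay below mock (-0.32, -0.52 and -0.78). Herpud1, which helps to clear misfolded proteins from that compartment, ran against them. It read 12.97, 12.91 and 12.90 with LPS, 13.89, 13.91 and 13.90 with genipin and 12.92, 12.96 and 12.84 in mock hearts (0.97 ± 0.05, adjusted p = 4.7e-06).

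Heat-shock chaperones held 5 of 33 lower members (Hspa1b, Hspa2, Hsp90aa1, Stip1 and Cct8) and 8 higher ones, near the background shares. Hspa1b, inducible Hsp70, read 11.86, 11.83 and 11.70 with LPS, 10.29, 10.29 and 10.40 with genipin and 12.07, 11.93 and 12.06 in mock hearts (-1.47 ± 0.07, adjusted p = 2.5e-06). Its genipin arrays lay below all other hearts. Dnajb4, an Hsp40, and Ahsa1, which activates Hsp90, were higher by 0.87 ± 0.13 and 0.54 ± 0.08. Of 42 NRF2 and antioxidant genes, 9 were lower and 10 higher, also near the background shares (19.8% and 22% of all genes). Gpx3, a secreted glutathione peroxidase, and Tkt, transketolase, differed by -1.74 ± 0.13 and -1.66 ± 0.08, and glutathione reductase (Gsr) by -0.91 ± 0.22, while the NRF2 target Osgin1 was higher by 0.93 ± 0.07. Hmox1, haem oxygenase 1, was not called: it read 11.78, 11.65 and 11.70 with LPS, 11.68, 11.58 and 11.74 with genipin and 10.62, 10.52 and 10.67 in mock hearts. Gpx3 and Tkt are also abundant in fat, whose transcripts fell on the same arrays; that part was not tested.

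Uncoupling proteins and mitochondrial carriers bear on the known target of genipin, though Ucp2 itself is not analysed here. Of 10 measured, 4 were higher and 2 lower, against 22% and 19.8% of all genes. Ucp3, the uncoupling protein of muscle, read 9.78, 9.74 and 9.495 with LPS, 10.23, 10.28 and 10.37 with genipin and 9.61, 9.45 and 9.58 in mock hearts (0.62 ± 0.09, adjusted p = 0.00094). It stood above mock by 0.75, where LPS alone differed from mock by 0.13. The aspartate-glutamate carrier Slc25a12, the oxoglutarate carrier Slc25a11 and the carnitine carrier Slc25a20 differed by 0.63 ± 0.05, 0.77 ± 0.11 and 0.70 ± 0.15. The lower members were Slc25a10 (-0.54 ± 0.18) and Slc25a4 (-0.22 ± 0.07). The call of Slc25a10 was lost without any single array of the comparison except LPS array 1 (-0.57 to -0.41), and that of Slc25a4 without LPS array 1 or 2 or LPS plus genipin array 1 or 2 (-0.24 to -0.19).

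Fuel oxidation genes were mostly higher or not called. Of 28 citric acid cycle and pyruvate genes, 13 were higher and 1 lower (Idh3b), with a median of 0.24. Sucla2, the ATP-forming subunit of succinyl-CoA synthetase, read 10.33, 10.15 and 9.97 with LPS, 11.25, 11.34 and 11.46 with genipin and 11.39, 11.34 and 11.32 in mock hearts (1.197 ± 0.10, adjusted p = 4.3e-05). Idh3g, a subunit of isocitrate dehydrogenase, read 13.90, 13.79 and 13.92 with LPS and 14.67, 14.72 and 14.68 with genipin (0.82 ± 0.06), whereas its partner Idh3b differed by -0.93 ± 0.05. Got1, Mpc1, the mitochondrial pyruvate carrier, and Oxct1, the enzyme of ketone use, differed by 0.86 ± 0.11, 0.74 ± 0.09 and 0.63 ± 0.08. Of 37 fatty acid oxidation and PPARA target genes, 15 were higher and 2 lower (Angptl4 and Pex11a), with a median of 0.21. Ppargc1a and Ppargc1b, the co-activators PGC-1 alpha and beta, differed by 1.10 ± 0.09 (adjusted p = 5e-05) and 1.03 ± 0.12, and stayed below mock (-0.55 and -0.45). Ppargc1a read 8.90, 8.99 and 8.82 with LPS, 9.81, 10.12 and 10.09 with genipin and 10.50, 10.55 and 10.61 in mock hearts. Plin5, of lipid droplets, Acsl1 and the receptor Esrrg differed by 0.97 ± 0.09, 0.76 ± 0.08 and 0.84 ± 0.07. Pdk4, which blocks glucose oxidation, was not called: it read 15.95, 15.65 and 15.76 with LPS (array 1 saturated) and 15.69, 15.59 and 15.74 with genipin, both above 14.14, 14.44 and 14.46 in mock hearts.

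Mitochondrial ribosomal proteins were higher in 32 of 65 and lower in 1 (Mrpl52), with a median of 0.26; leaving out single arrays gave 23 to 31 higher. Mrpl18, of the large subunit, read 12.38, 12.43 and 12.64 with LPS, 13.50, 13.36 and 13.48 with genipin and 13.17, 13.40 and 13.28 in mock hearts (0.96 ± 0.09, adjusted p = 9.7e-05). Mrpl36, Mrpl47 and Mrps33 differed by 0.77 ± 0.13, 0.66 ± 0.12 and 0.59 ± 0.05. The list's medians against mock were -0.37 with LPS and -0.10 with LPS plus genipin. Of 66 subunits of oxidative phosphorylation, 17 were higher and 1 lower (Cox6a1), with a median of 0.06. Over all genes 22% were higher and 19.8% lower, with a median of 0.03, so the share of higher subunits lay near the background. In both groups 29 subunits were at a limit of the scale, which leaves their folds unmeasured. Uqcrfs1, the Rieske protein of complex III, and Ndufs1 and Ndufb7 of complex I differed by 0.76 ± 0.11, 0.62 ± 0.13 and 0.69 ± 0.16. Among glycolysis and hypoxia genes, 10 of 34 were higher and 7 lower, against 22% and 19.8% of all genes. Pfkfb3, which drives glycolysis, differed by -1.13 ± 0.11, adrenomedullin (Adm) by -0.72 ± 0.06, and the insulin-responsive glucose transporter Slc2a4 by 0.74 ± 0.09.

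Heart muscle genes for calcium, current and transcription were more often higher than lower. Of 29 calcium handling genes, 13 were higher and 1 lower, with a median of 0.25. Trdn, which anchors the release channel, read 11.98, 11.60 and 11.45 with LPS, 12.37, 12.37 and 12.71 with genipin and 12.34, 12.43 and 12.45 in mock hearts (0.81 ± 0.15, adjusted p = 0.0031). Nfatc2 and calsequestrin 1 (Casq1) differed by 1.34 ± 0.14 and 0.66 ± 0.10. Rcan1, which calcineurin induces and which inhibits it in return, was the lower member: it read 15.51, 15.68 and 15.60 with LPS and 13.74, 13.87 and 13.81 with genipin (-1.79 ± 0.09, adjusted p = 4.2e-06). For Slc8a1, the sodium-calcium exchanger, the brightest probe was higher (0.47 ± 0.09) but another was lower, so its direction is unsettled. Atp2a2 (SERCA2) was saturated on every array and gives no fold; phospholamban (Pln) was saturated on all but LPS array 1 (12.96, 15.999 and 15.999) and was not called.

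Of 20 ion channel and conduction genes, 9 were higher and 2 lower (Gja5 and Kcnj3, both enriched in atrium). Kcnip2 (KChIP2), the subunit of the transient outward current, read 9.30, 9.10 and 9.53 with LPS, 11.14, 10.83 and 11.15 with genipin and 10.67, 11.04 and 11.003 in mock hearts (1.73 ± 0.15, adjusted p = 6.1e-05). The inward rectifier Kcnj12 and the modifier Kcnv2 differed by 0.93 ± 0.13 and 0.90 ± 0.09, and Kcnj8, of vascular KATP channels, was at the floor with LPS and at least 2.15-fold higher with genipin. Of 21 cardiac stress, natriuretic and adrenergic genes, 8 were higher and 5 lower (Rcan1, Nppb, Ankrd1, Npr3 and Grk5). The higher ones were led by transcription factors of the heart: Gata4, Gata6, Mef2a and Hand2 differed by 0.87 ± 0.10, 0.89 ± 0.11, 0.85 ± 0.09 and 0.74 ± 0.11. Gata4 read 11.87, 11.62 and 11.95 with LPS and 12.70, 12.66 and 12.70 with genipin, and did not differ from mock by the test (adjusted p = 0.35). The ventricular identity gene Irx4 read 9.80, 9.90 and 9.68 with LPS, 10.79, 10.84 and 10.86 with genipin and 11.65, 11.38 and 11.40 in mock hearts (1.04 ± 0.09). Nppb, the natriuretic peptide BNP of stretched muscle, read 14.63, 14.62 and 14.65 with LPS, 13.98, 14.09 and 14.02 with genipin and 14.82, 14.52 and 14.88 in mock hearts (-0.60 ± 0.09); Nppa is not analysed here. Of 31 sarcomere genes, 6 were higher and 3 lower (Xirp1, Tpm1 and Ankrd1), against 22% and 19.8% of all genes. Myot, myotilin, differed by 1.17 ± 0.13 and Xirp1, of the intercalated disc, by -1.35 ± 0.05. The 4 atrial markers fell on the same arrays, with differences down to -6.52, and their part in these rises was not tested.

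Of 17 clock genes, 9 were higher and 3 lower (Nfil3, Nr1d1 and Arntl). Dbp, a clock-driven activator, read 12.71, 12.59 and 12.89 with LPS, 13.68, 13.57 and 13.67 with genipin and 13.66, 13.84 and 13.89 in mock hearts (0.91 ± 0.09, adjusted p = 0.00015). Per3, Tef and Hlf differed by 0.87 ± 0.09, 0.69 ± 0.08 and 0.71 ± 0.17, and their repressor Nfil3 by -0.89 ± 0.11. Of 20 glucocorticoid-responsive genes, 6 were lower and 4 higher (Tsc22d3, Map3k6, Sgk1 and Arrdc2), against 19.8% and 22% of all genes. The median difference of the list was -0.004. Its median against mock was 1.04 with LPS and 1.03 with LPS plus genipin. The call of Map3k6 was lost without LPS array 1 or 2 or LPS plus genipin array 1 or 3 (0.44 to 0.52). Angptl4, an inhibitor of lipoprotein lipase, led the falls (-2.14 ± 0.09), and Tsc22d3 (GILZ), near the floor, was higher (0.59 ± 0.10), a call lost with a higher floor (0.19). Of 22 cell death genes, 9 were lower and 3 higher (Bcl2, Casp6 and Casp9). Mlkl, the executioner of necroptosis, read 11.36, 11.33 and 11.06 with LPS and 8.85, 9.18 and 9.27 with genipin (-2.15 ± 0.17). Casp4 (caspase-11), the sensor of cytosolic LPS, read 12.25, 12.49 and 12.32 with LPS and 10.66, 10.66 and 10.61 with genipin (-1.71 ± 0.07). Gsdmd, the pore of pyroptosis, differed by -0.82 ± 0.09, and Bcl2, which protects from apoptosis, by 0.75 ± 0.12.

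Of 21 cell cycle genes, 9 were higher and 3 lower (Cdkn1a, Ccnd2 and Mcm3): Ccna2, the cyclin of S phase, read 8.84, 8.77 and 8.57 with LPS and 9.42, 9.49 and 9.60 with genipin (0.78 ± 0.11). Of 19 cholesterol genes, 8 were lower and 1 higher (Insig1). Ch25h, which makes the antiviral 25-hydroxycholesterol, read 12.93, 13.05 and 13.06 with LPS and 11.61, 11.44 and 11.38 with genipin (-1.54 ± 0.07, adjusted p = 2.9e-06), and the synthesis enzymes Idi1 and Msmo1 differed by -0.97 ± 0.09 and -0.80 ± 0.08. Of 24 autophagy and atrophy genes 8 were higher and none lower, but only 4 or 5 were higher when any array except LPS array 3 was left out; Wipi1 and Klhl38 led with 0.61 ± 0.05 and 0.73 ± 0.07. Of 20 tubulin and actin genes, 6 were lower and 4 higher (Tubgcp4, Acta1, Tuba4a and Tuba8), with Tubb6 and Tuba1c at -1.13 ± 0.05 and -1.24 ± 0.15. Of 158 solute carriers, 49 were lower and 35 higher: the glutamate transporter Slc1a3 differed by -2.65 ± 0.07, the lysosomal Slc15a3 by -2.27 ± 0.09 and the zinc transporter Slc39a8 by -1.99 ± 0.10. Of 163 Zfp genes, 30 were higher (19 without LPS plus genipin array 2) and 21 lower, close to the background. Over all genes, 22% were called higher and 19.8% lower.

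Remaining marker lists were small and are given by their called members. Among markers of pericytes and smooth muscle, Kcnj8 and Rgs5 were higher and Myh11, Acta2 and Cspg4 lower of 7; for Acta2 a further probe was called higher, so its direction is unsettled. Of 10 skeletal and smooth muscle transcripts, Acta1 and Des were higher and Myh11, Tnnc2 and Acta2 lower. Of 12 ventricular transcripts, Irx4 and Hey2 were higher and Nppb lower; without LPS array 2 or LPS plus genipin array 2, Irx4 alone was higher. Thy1 of T cells was higher, Blk of B cells and Dbh of sympathetic nerve were lower, and of 3 platelet markers Ppbp was higher and Pf4 lower. Msln (mesothelin), of the serous lining of the heart, differed by -1.94 ± 0.17, and 3 of 6 markers of endocardium and lymphatic endothelium were lower, led by Pdpn (podoplanin, -1.49 ± 0.07). Of 4 brown fat markers, Dio2 and Cidea were lower and Ppargc1a, which heart muscle also expresses, was higher.

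The 15 largest falls outside the fat, atrial and other lists kept apart were Hp, Prkar2b, Ltf, Cdo1, Cyp2e1, Timp1, Cxcl9, Actg2, Cbr2, Ccn3, Il33, Cd24a, Retnla, Arxes1 and Mlana. Prkar2b, a regulatory subunit of protein kinase A, read 13.64, 13.77 and 13.70 with LPS and 9.18, 9.43 and 9.45 with genipin (-4.35 ± 0.09, adjusted p = 4.3e-08). Cdo1, which breaks down cysteine, and Cyp2e1, a cytochrome P450, differed by -3.89 ± 0.09 and -3.72 ± 0.21. These 3 are abundant in fat as well, and their mock arrays, like those of the fat transcripts, lay far below LPS, by 3.74, 4.52 and 4.29. The part of fat in them was not tested. For the other falls of the list, such as Arxes1 and Cbr2 (2.60 and 3.03 above mock with LPS), it was not tested either. Actg2, an actin of smooth muscle, lay at the floor on every genipin array and was at least 10.6-fold lower. Retnla (RELM alpha), of alternatively activated macrophages and fat, read 11.88, 11.96 and 12.10 with LPS, 8.999, 9.11 and 9.15 with genipin and 11.44, 11.59 and 11.74 in mock hearts (-2.89 ± 0.09, adjusted p = 3.8e-07), so the genipin hearts lay below both other groups.

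The 15 largest rises were smaller and led by Rbp7, a retinol-binding protein of capillaries. It read 10.11, 9.85 and 9.83 with LPS, 12.13, 12.05 and 12.19 with genipin and 11.93, 11.85 and 11.79 in mock hearts (2.19 ± 0.09, adjusted p = 1e-06). Adgrl4 (ELTD1), an endothelial adhesion receptor, read 10.36, 10.58 and 10.28 with LPS, 12.22, 12.16 and 12.31 with genipin and 12.69, 12.49 and 12.49 in mock hearts (1.82 ± 0.10). Sorbs2, a scaffold of the intercalated disc, Maob, monoamine oxidase B, and Gucy1b1, a subunit of the nitric oxide receptor, differed by 1.78 ± 0.06, 1.53 ± 0.15 and 1.496 ± 0.18. Ankrd37, a hypoxia-responsive gene, differed by 1.72 ± 0.06. Its LPS arrays 2 and 3 were at the floor and array 1 just above it, so this difference is a lower bound. Mest was at the floor with LPS and at least 2.88-fold higher with genipin. The others were Itpripl1, Tspan13, Kcnip2, Abca8a, BC028528, Coro6, Jag2 and Palm, with differences from 1.46 to 1.81.

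Whether a change is particular to heart was tested as the heart difference minus the mean of the same difference in brain, kidney and liver. Of 6781 genes measured in all 4 tissues, 3016 differed (44.5%), 1418 more positive and 1598 more negative in heart. The 5 most negative were Dkk3, Myl4, Cdo1, Mybphl and Fasn, which are atrial or fat transcripts or abundant in fat. Among inflammatory genes, Il33 and Vcam1 were more negative in heart, by -2.38 ± 0.09 and -2.05 ± 0.10. Il33 changed by -2.94 in heart, 0.77 in brain, -0.72 in kidney and -1.71 in liver. Hspa1b and Rcan1 were more negative in heart as well, by -2.97 ± 0.10 and -2.39 ± 0.10, and in liver their differences had the opposite sign (3.58 and 2.35). For Gbp2, Ifit3, Isg15 and Nfkbia the test found no difference between heart and the mean of the other tissues. The values were -0.01 ± 0.10, -0.02 ± 0.13, -0.03 ± 0.10 and -0.06 ± 0.09. Nfkbia was saturated on the LPS heart arrays, so its fall in heart is a bound and a larger one could not show. Single tissues could still lie on either side of heart. Ifit3 changed by -2.35 in heart, -1.85 in brain, -1.34 in kidney and -3.81 in liver. Isg15 changed by -2.27, -2.03, -1.38 and -3.30 in the same order. Of 31 interferon-stimulated genes measured in all tissues, 12 were more negative and 3 more positive in heart. Of 59 mitochondrial ribosomal proteins, 23 were more positive and 1 more negative. Herpud1 was more positive in heart by 1.11 ± 0.07, and Gpr22, a receptor of heart and brain, by 1.86 ± 0.24.

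**Figure D5:**
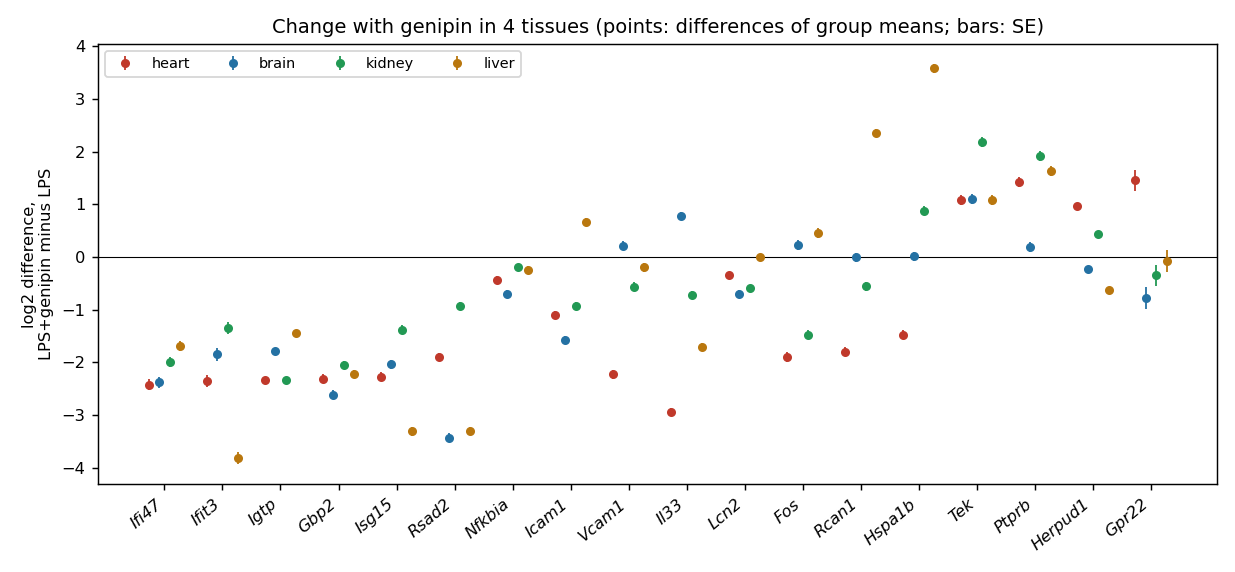
Log2 difference LPS plus genipin minus LPS in heart, brain, kidney and liver for 18 genes; points are differences of group means over 3 arrays each and bars the SE of the fit over 36 arrays. The interferon-stimulated genes at the left are below 0 in all 4 tissues, while Rcan1 and Hspa1b are below 0 in heart and above 0 in liver.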

How the data were processed

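Heart RNA was labelled with Cy5 from 5 µg of total RNA and hybridised to single-colour arrays, per the labels' protocols. The deposited table holds linear intensities of 18183 probes. The authors' normalization is not described in the sources used here beyond the tool limma, per the submitters' processing notes; the heart arrays shared a median intensity of 1463 to 1464. Of the probes, 13543 were measured in heart and 11194 of these carried a gene symbol. Intensities below the 5th percentile of all deposited values were set to it (263). Of the heart values, 3.66% lay at this floor and 1.47% reached 60000. Then log2 was taken. Differences were fitted with limma 3.58.1 (R 4.3.3, lmFit and eBayes) over the mock, LPS and LPS plus genipin hearts, and for the comparison of tissues over all 36 arrays. Tables were made with pandas 2.3.3 and numpy 2.4.6 under Python 3.11.15, and figures with matplotlib 3.10.9.

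Named genes are the 15 largest rises and falls among genes called without overlap (lists kept apart and unnamed models left out), up to 6 called members of each list by size (8 in lists kept apart), genes central to a list, and the 5 largest in each direction of the tissue test. The comparison and lists were chosen with earlier results of these data known. Replicate numbers did not pair the arrays: deviations of same-numbered arrays correlated at -0.50, 0.24 and -0.51. Alternatives were other floors, normalizations, probe and variance choices, a block on replicate number, and leaving out each array. The procedure was tested on simulated data.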

Additional observations from a re-analysis of the deposited data

Results flagged for a closer look

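The change with genipin differed between heart and the mean of brain, kidney and liver in 3016 genes by limma's test of that difference. The most negative genes in heart, with the difference between heart and the other tissues on the log2 scale, were Dkk3 (-4.53), Myl4 (-4.17), Cdo1 (-3.84), Mybphl (-3.63) and Fasn (-3.60). Dkk3, Myl4 and Mybphl are atrial transcripts and Fasn is a fat transcript. The most positive were Gpr22 (1.86), Sec22c (1.77), Rheb (1.65), Tmem266 (1.65) and Obp2a (1.63). Sec22c, Rheb and Obp2a were not called within heart, so for them the difference rests on the other tissues as well.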

How the results depend on the processing

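Over 16 other settings the number of called genes ranged from 3121 to 4155 and that of at least 2-fold changes from 446 to 519. The number of genes differing between heart and the other tissues ranged from 2553 to 3292. It was followed over 12 other settings, which included each other tissue alone. Leaving out single arrays gave 3121 to 3995, 481 to 519 and 2553 to 3157. With a replicate block 3445 genes were called. Of 273 named genes called, 254 kept their direction and call in every setting, 18 lost the call in at least 1, and Slc8a1 reversed with the mean of a gene's probes (-0.23); its probes disagree. Sec22c, Rheb and Obp2a passed the test in at least 1 setting. Of 44 lists, 6 moved their count by over 1.5 times in some setting: autophagy and atrophy, endoplasmic reticulum chaperones, proteasome, Zfp, ventricular and cytosolic ribosomal genes. The cause of these shifts was not tested. Precision is limited by 3 arrays per group, by probes at the floor and by saturated probes, whose changes are bounds. Fat and atrial levels differ between the groups compared, the genipin dose of these hearts is unknown here, and there is no group given genipin alone.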
